A study of Nicotiana benthamiana with 12 samples.

Results

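Heat was compared with mock in total leaf RNA of the laboratory plant Nicotiana benthamiana, which is closely related to tobacco. The comparison takes 6 of the 12 libraries of the series by their titles, heat libraries 2, 3 and 4 against mock libraries 5, 6 and 7. Heat plants were held at 37 °C for 1 h and mock plants were left at 23 °C. Both groups were 5 weeks old and soil-grown, and the labels name no cultivar, transgene or chemical agent in either. The other 6 libraries hold polysome RNA of the same treatments. They enter the choice of genes tested, the scaling of counts and the estimate of the spread between libraries, but not the contrast. The design text calls the 3 libraries of each group biological replicates, but the number of plants or leaves behind a library is not stated. The p-values therefore rest on the spread between libraries within groups, pooled over all 12, and not on the 6 compared libraries alone. In bulk leaf RNA, fewer cells of a type and less RNA per cell cannot be told apart. Transcripts of the Rubisco small chain and of antenna proteins, which mark photosynthetic leaf tissue, were plentiful in all 6 libraries. The Rubisco small chain gene Niben101Scf03015g06015.1 stood at 12800, 11900 and 14100 CPM (counts scaled to the size of the library) in mock and 10400, 9710 and 9520 CPM after heat.

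When a plant cell is heated, proteins lose their fold, and heat stress transcription factors bind heat shock elements in promoters and switch on genes of molecular chaperones. Small heat shock proteins hold unfolding proteins in a soluble state, HSP70 and its DnaJ partners refold them, HSP90 matures signalling proteins, ClpB pulls aggregates apart and chaperonins fold proteins inside a closed barrel. Heat is also known to slow growth, light harvesting and cell division in leaves, and membranes are remodelled because lipids become more fluid.

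Across the transcriptome, 45.9% of the genes tested did not pass the threshold after the short exposure, and the others did. The table lists 40763 genes, of which 34325 were counted well enough for a test and 6438 were not. After heat, 8832 genes were higher (25.7% of those tested) and 9728 were lower (28.3%) at an adjusted p of 0.05 in edgeR's quasi-likelihood test, and 15765 were not called. The median log2 change of all genes tested was -0.08. Falls outnumbered rises up to 2 log2 units, and rises outnumbered falls from 3 units on. Over 1 log2 unit, 5382 genes rose and 6591 fell, and over 2 units 1999 rose and 2527 fell. Over 3 log2 units, 938 genes rose and 806 fell, over 5 units 258 rose and 77 fell, and over 8 units 54 rose and 0 fell. Rises were most frequent among well-counted genes. Genes tested were split into 4 equal groups by mean level. In the highest group (at least 13.6 CPM), 40.9% rose and 23.1% fell, and in the lowest group 10.9% rose and 35.2% fell.

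The mock libraries were less alike than the heat libraries. Between pairs of heat libraries the chi-square of counts per degree of freedom was 1.73 to 2.1, and between pairs of mock libraries it was 9.92 to 20.8. Pairs of polysome libraries, whose spread enters the fit, gave 18.58 to 34.89 in mock and 2.57 to 12.98 after heat. Transcripts of plastid genome type, 304 genes by their annotation text, summed to 751.7 CPM in mock library 5, 10980 CPM in library 6 and 10900 CPM in library 7, against 464.5 to 500.6 CPM after heat. Those of mitochondrial genome type, 79 genes, summed to 13.96, 170.4 and 124.8 CPM in mock and 33.58, 37.89 and 36.11 CPM after heat, so mock library 5 lay below heat and the other mock libraries above it. Library 7 differed in a second way. Histones, ribosomal proteins, lipid-transfer proteins and GASA peptides took a larger share of its counts than of either other mock library. Each result was therefore also computed with mock library 5 alone, in which 36434 genes could be tested. That comparison called 6497 genes higher (17.8%) and 6262 lower (17.2%), with a median log2 change of -0.03, and assumes that the lone mock library varies like the other groups. Library 6 alone gave 6622 and 6524 calls and library 7 alone 7589 and 7883, so each single mock library gave fewer calls than the 3 together. These last 2 comparisons were added after the data were seen.

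**Figure D1:**
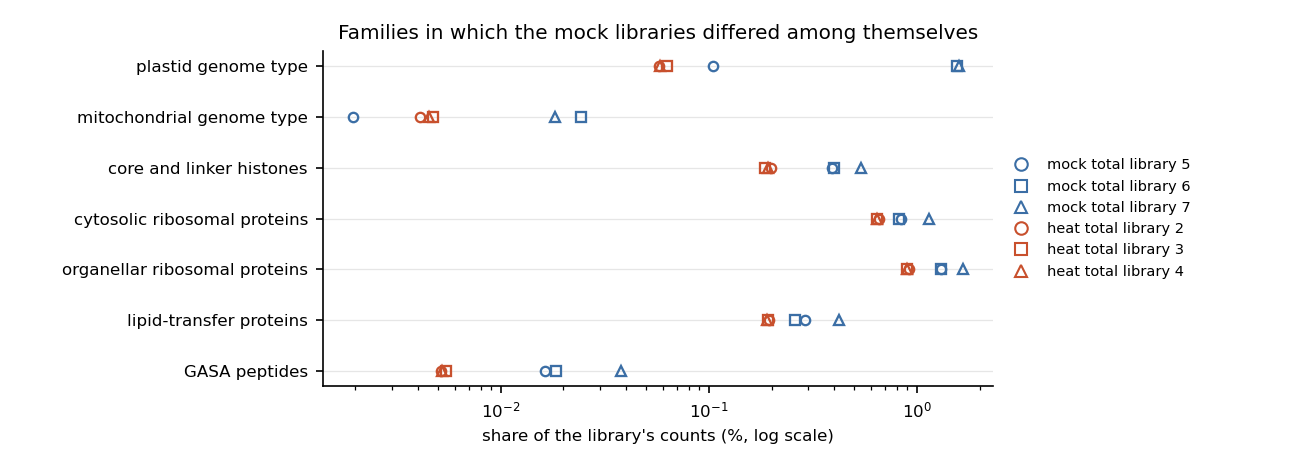
Share of each library's counts (%, log scale) taken by 7 gene families in the 3 mock (blue) and 3 heat (red) total RNA libraries, 1 symbol per library. The plastid share was 0.105% in mock library 5 against 1.56% and 1.59% in libraries 6 and 7, and histones took 0.54% in library 7 against 0.39% and 0.401%.

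Of the 8832 rises, 6239 (70.6%) were also called with library 5 alone, and of the 9728 falls, 5820 (59.8%) were. No rise turned into a call in the other direction, while 16 falls did. The log2 change had the opposite sign for 0 of the rises and 135 of the falls, and 48 of these 135 were in the lists of plastid or mitochondrial genome type. Those lists are matched on annotation text and can miss organelle genes, so the others are not shown to be nuclear. Of the 258 rises over 5 log2 units, 241 were over it in both comparisons, and of the 77 falls 31 were. Among 159 tested genes of plastid genome type, 134 were lower and 3 higher with 3 mock libraries (median log2 change -3.92), but 10 were lower and 5 higher with library 5 alone (median -0.41). Among 32 genes of mitochondrial genome type, 15 were lower and 0 higher with 3 mock libraries (median -1.49), against 1 lower and 13 higher with library 5 alone (median 1.79). The direction of the mitochondrial list therefore depended on the mock library.

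**Figure D2:**
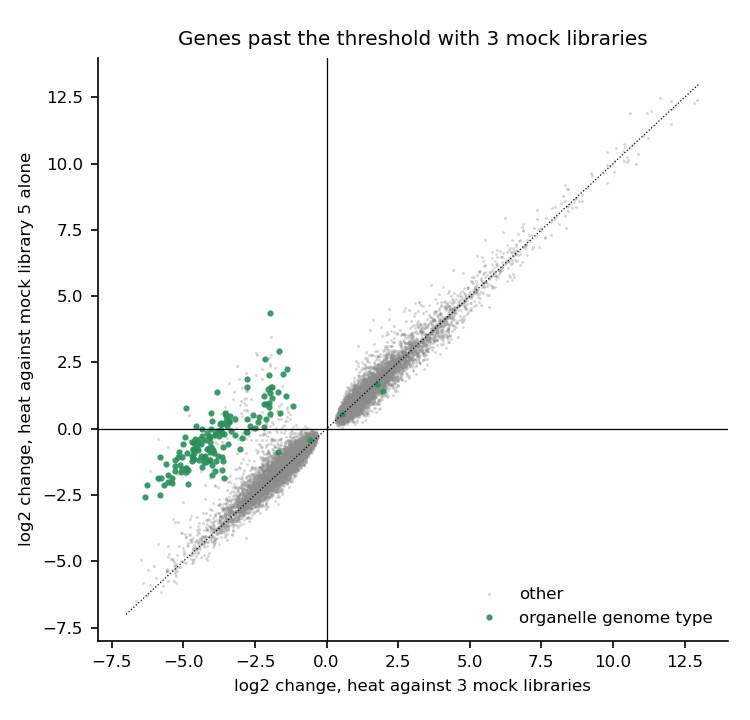
Log2 change of each gene past the threshold with 3 mock libraries (x axis) against its log2 change with mock library 5 alone (y axis), with genes of plastid and mitochondrial genome type in green and the dotted line marking equal values. Rises lie along the line, and 135 of the 9728 falls lie above 0 on the y axis, 48 of them green.

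Chaperone transcripts took 10.5 ± 0.12% of counts after heat and 1.98 ± 0.062% in mock (mean ± SD, n = 3). Together, the lists of chaperones, their co-chaperones and heat stress factors (852 genes) held 2.03%, 2% and 1.91% of counts in mock libraries 5, 6 and 7, and 10.4%, 10.6% and 10.7% in heat libraries 2, 3 and 4. Small heat shock proteins alone went from 0.0704 ± 0.00454% to 3.12 ± 0.0165% (mean ± SD, n = 3), HSP70 from 0.224 ± 0.0256% to 1.62 ± 0.0314%, and HSP90 with HtpG from 0.0694 ± 0.00587% to 1.11 ± 0.0315%. BAG proteins and related co-chaperones, which release clients from HSP70, went from 0.045 ± 0.0021% to 0.665 ± 0.0182%. No mock library overlapped a heat library in any of these shares, and libraries 6 and 7 gave mock values close to library 5.

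**Figure D3:**
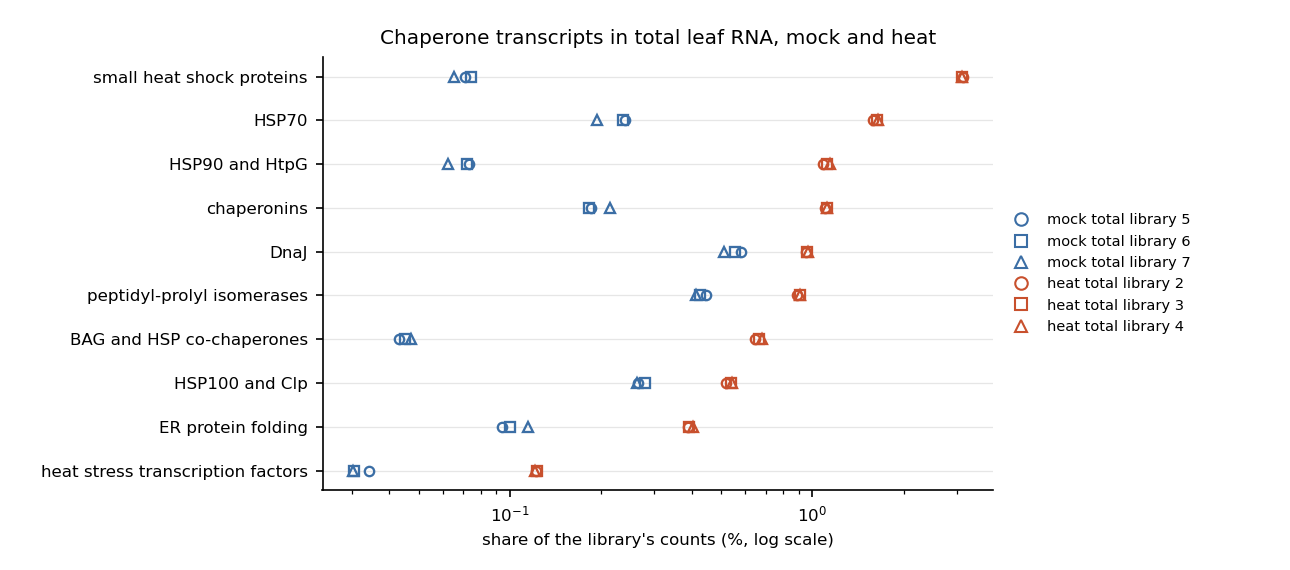
Share of each library's counts (%, log scale) taken by 10 chaperone and heat stress factor lists in mock (blue) and heat (red) total RNA, 1 symbol per library. In every list the 3 heat libraries lie above the 3 mock libraries, with the widest gap for small heat shock proteins (0.0704% against 3.12%) and narrower gaps for DnaJ (0.55% against 0.959%).

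Values of single genes are given in CPM in the order mock 5, 6 and 7, then heat 2, 3 and 4, and changes as log2 fold changes ± SE with the adjusted p over all genes tested. Gene identifiers and homology texts are those of the deposited table. Counts of called genes in a list are to be read beside all genes tested, of which 25.7% rose and 28.3% fell. Counts with library 5 alone are to be read beside the lower shares given above for that comparison. Near-identical copies could have shared reads, and the strand of the counting is not stated, so the value of a single copy is uncertain. A value near 0.06 CPM is the lowest deposited count, 1, and holds no read above it.

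Most genes of small heat shock proteins and HSP70 rose, and single members of the families fell. The small heat shock protein with the most counts, class I gene Niben101Scf10384g00014.1, went from 2.85, 1.88 and 1.41 CPM to 3120, 2940 and 2870 CPM, a log2 change of 10.5 ± 0.37 (adjusted p = 1.9e-12). Niben101Scf08206g01019.1, with the text of HSP21, a small heat shock protein of the chloroplast, had no read above the lowest count in mock and 154, 145 and 155 CPM after heat, at least 2440-fold higher. A class V gene (Niben101Scf03104g03020.1) moved the other way, from 22.3, 20.5 and 20.4 CPM to 7.15, 7.03 and 7.25 CPM. All 3 genes kept direction and call with library 5 alone. Of 81 small heat shock protein genes tested, 50 rose and 8 fell, and with library 5 alone 46 rose and 1 fell. HSP70 rose more evenly, in 54 of 58 genes with 2 falls.

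Chaperonins and their relatives also went both ways. Of 88 genes tested, 37 rose (42%, against 25.7% of all genes) and 10 fell. Niben101Scf01922g05005.1, a 60 kDa chaperonin, went from 7.87, 6.93 and 9.48 CPM to 667, 678 and 686 CPM (6.39 ± 0.19, adjusted p = 4.6e-13). Its relative Niben101Scf07309g00003.1 started higher, at 38.6, 36.5 and 45.5 CPM, and reached 960, 952 and 979 CPM. An RbcX-like gene (Niben101Scf02145g04003.1), whose product assists Rubisco assembly in plastids, fell from 41.8, 40.7 and 26.8 CPM to 9.04, 9.69 and 8.4 CPM. The ClpB genes also split. Niben101Scf15972g01024.1 went from 0.698, 1.35 and 0.897 CPM to 296, 314 and 308 CPM, while Niben101Scf02034g02001.1 went from 36.5, 43.6 and 35.7 CPM to 6.58, 5.77 and 5.54 CPM (log2 change -2.69 ± 0.25, adjusted p = 2.7e-07).

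Co-chaperone lists held both rises and falls. BAG6, a regulator of HSP70 with a calmodulin-binding motif in Arabidopsis, was represented by Niben101Scf04537g01009.1, at 48.7, 51.3 and 30 CPM in mock and 2780, 2880 and 2960 CPM after heat (6.05 ± 0.25, adjusted p = 1.2e-11). A second BAG6 gene, Niben101Scf02175g06018.1, had no read above the lowest count in mock and 68.9, 67.9 and 70.1 CPM after heat, at least 1110-fold higher. The peptidyl-prolyl isomerase D gene Niben101Scf07428g01006.1, of a family that speeds proline turns in folding proteins, went from 34.4, 41.4 and 37.4 CPM to 1590, 1610 and 1630 CPM. Yet of 119 peptidyl-prolyl isomerase genes 32 rose and 31 fell with 3 mock libraries (26.9% and 26.1%), close to the shares among all genes tested. More of these rises than of these falls were also called with library 5 alone. The list's median was 0.09, and 0.1 with library 5 alone. DnaJ genes were mixed as well, with 87 rises (39.9%) and 44 falls (20.2%) among 218. Niben101Scf03817g16010.1 went from 1.97, 1.94 and 1.6 CPM to 698, 739 and 749 CPM, but the DnaJ gene with the most counts, Niben101Scf01834g01011.1, overlapped between groups at 696, 583 and 385 CPM and 660, 632 and 643 CPM (0.22 ± 0.22, adjusted p = 0.41). In the endoplasmic reticulum, where secreted proteins fold, 36 of 56 genes rose and 4 fell. Calreticulin-3 (Niben101Scf04375g04006.1), a lectin chaperone, went from 27.9, 26 and 24 CPM to 398, 407 and 401 CPM.

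Heat stress transcription factors themselves rose in 20 of 37 genes and fell in 5 (median log2 change 0.76), and with library 5 alone 17 rose and 4 fell. HSFA2 (Niben101Scf01777g02001.1), an amplifier of the response in Arabidopsis and tomato, went from 6.03, 5.52 and 5.89 CPM to 374, 368 and 374 CPM (6 ± 0.23, adjusted p = 7.4e-12). Genes with the text of HSFA6b went both ways. Niben101Scf03923g03003.1 rose from 1.08, 1.06 and 0.833 CPM to 85.7, 81.6 and 81.2 CPM, and Niben101Scf01609g00003.1 fell from 1.14, 1.35 and 1.02 CPM to 0.172, 0.0634 and 0.0609 CPM.

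Rises that also held with library 5 alone were taken by size, with at most 2 per list or text, and outside the chaperones these included a transcriptional coactivator, a ubiquitin ligase type and genes without a described function. Multiprotein-bridging factor 1c (Niben101Scf01587g01006.1), a coactivator required for thermotolerance in Arabidopsis, went from 0.571, 0.528 and 0.769 CPM to 858, 801 and 798 CPM. Its log2 change was 10.34 ± 0.28 (adjusted p = 1.8e-13), and 1 of the 7 bridging factor genes tested rose. A pair of genes with 1 shared text that gives no function followed.
Of this pair, Niben101Scf02814g01001.1 went from 0.381, 0.47 and 0.512 CPM to 287, 285 and 296 CPM (9.28 ± 0.32, adjusted p = 1.9e-12), and Niben101Scf05392g00005.1 reached 197, 199 and 205 CPM. A gene with the text of RING finger protein 44 (Niben101Scf02283g00005.1), of a ubiquitin ligase type, had no read above the lowest count in mock and 39.7, 41.8 and 39.7 CPM after heat, at least 650-fold higher. RHD3 (Niben101Scf02895g01003.1), a GTP-binding protein that shapes the endoplasmic reticulum in Arabidopsis, went from 0.127, 0.117 and 0.0641 CPM to 54.7, 46.3 and 52.4 CPM. Its reads above the lowest count rose by a ratio of 1240, with a 95% counting interval of 343 to 10200 that covers counting error only.

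**Figure D4:**
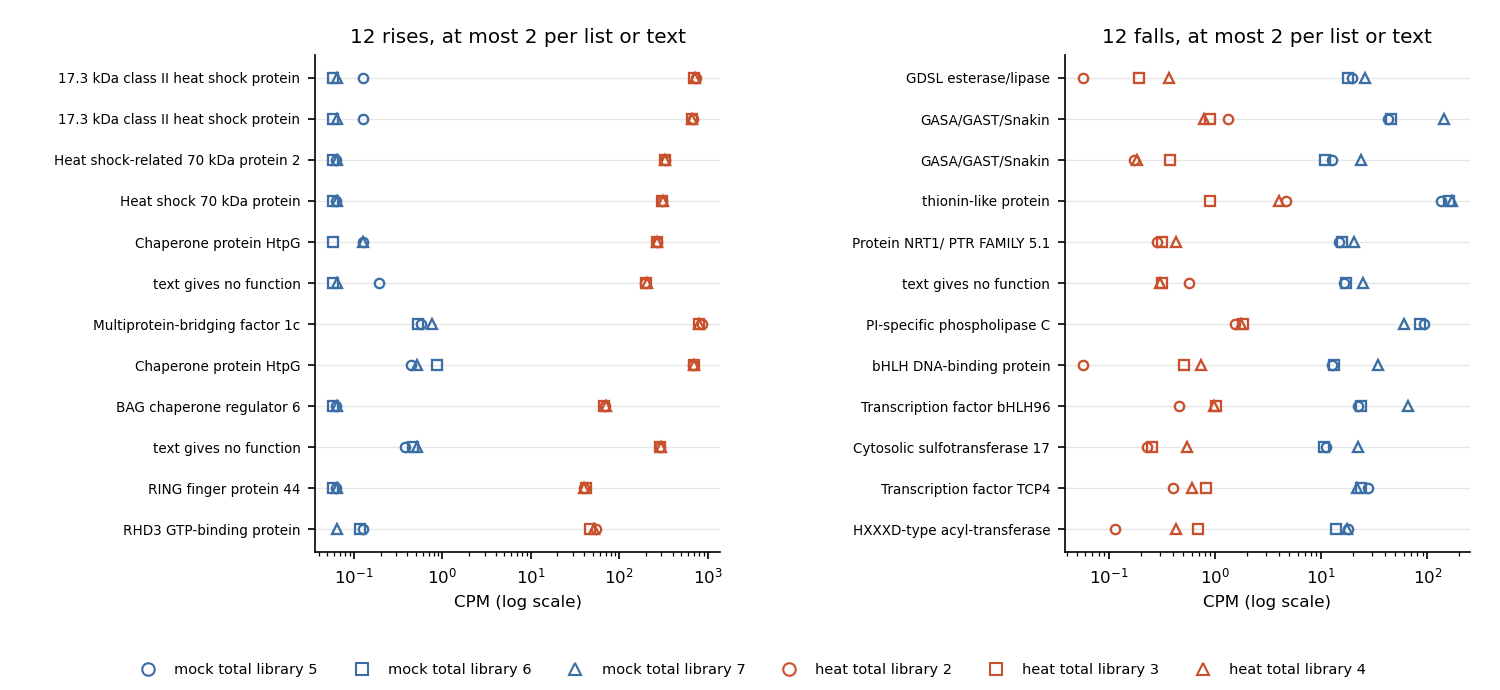
CPM per library (log scale) of 12 rises (left) and 12 falls (right), taken by size with at most 2 per list or text among genes past the threshold with 3 mock libraries and with library 5 alone whose groups did not overlap, in mock (blue) and heat (red), 1 symbol per library and the gene's homology text on the y axis. The separation of the groups follows from this choice, rises larger than some of those plotted, such as HSP21 (log2 change 11.04), are left out by the limit per list, and in bHLH96 mock library 7 (65 CPM) lies above libraries 5 and 6 (22.1 and 23.8 CPM).

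Protective sugars and antioxidant enzymes changed gene by gene. Trehalose metabolism, which includes genes that make trehalose phosphate and genes that remove its phosphate, had 13 rises and 6 falls among 26 genes. The trehalose phosphate synthase gene Niben101Scf06275g00008.1 went from 8.12, 6.81 and 3.01 CPM to 112, 113 and 112 CPM (4.22 ± 0.33, adjusted p = 2.7e-08). Galactinol synthase 1, the first enzyme of raffinose synthesis, rose in gene Niben101Scf00687g00006.1, which went from 1.08, 1.06 and 0.448 CPM to 4.23, 5.39 and 5.3 CPM. Ascorbate peroxidases remove hydrogen peroxide. APX1 (Niben101Scf06590g00003.1) went from 109 ± 8.4 CPM in mock to 827 ± 21.6 CPM after heat (mean ± SD, n = 3, no overlap between groups), and APX2 (Niben101Scf07050g00006.1) from 21.8, 22.8 and 16.7 CPM to 357, 342 and 336 CPM (4.07 ± 0.23, adjusted p = 5.6e-10). In the same list of 44 genes, 16 rose and 10 fell, among the latter the iron superoxide dismutase gene Niben101Scf04926g04007.1, from 7.1, 5.58 and 8.46 CPM to 0.744, 1.39 and 1.7 CPM. Of 11 catalase genes 4 rose and 2 fell, and the catalase with the most counts (Niben101Scf01497g03008.1) did not pass the test, at 297, 309 and 266 CPM and 256, 254 and 257 CPM (adjusted p = 0.34).

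Other stress enzymes gave large rises in single genes. Glutathione S-transferase 3 (Niben101Scf02971g01005.1), which conjugates reactive compounds, went from 0.19, 0.235 and 0.256 CPM to 49.8, 48.2 and 47.3 CPM (7.68 ± 0.26, adjusted p = 1.5e-12), while 19 of the 61 genes of its list rose and 16 fell. Alternative oxidase 3 (Niben101Scf00239g07005.1), a bypass of the mitochondrial electron chain, went from 10.8, 10.4 and 11.5 CPM to 128, 138 and 132 CPM. A dehydrin (Niben101Scf05385g04007.1), a water-binding protein made in drought and cold, went from 51.6, 63.4 and 58.9 CPM to 300, 297 and 317 CPM. Dehydrins and other late embryogenesis abundant proteins as a list did not share a direction, with 12 rises and 14 falls among 49. Glutaredoxin-C1 (Niben101Scf20325g00012.1), a small redox protein, fell from 18, 18.5 and 17.2 CPM to 0.801, 0.95 and 0.792 CPM (-4.39 ± 0.21, adjusted p = 7.4e-11).

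Genes for splicing and moving RNA had more rises than falls. Among 221 genes of pre-mRNA splicing there were 77 rises (34.8%, against 25.7% of all genes) and 36 falls (16.3%, against 28.3%), and with library 5 alone 57 and 14. Serine/arginine-rich splicing factors choose splice sites, and SR12 (Niben101Scf04422g03014.1) went from 2.66, 2.17 and 2.18 CPM to 146, 133 and 142 CPM (5.9 ± 0.21, adjusted p = 3e-12). Another, with the text of factor 9 (Niben101Scf00154g05017.1), went from 2.35, 3.35 and 2.5 CPM to 160, 148 and 161 CPM. Nuclear transport, which carries proteins and RNA through the nuclear pore, had 41 rises and 8 falls among 106 genes (median 0.35), and 33 and 3 with library 5 alone. Importin subunit beta-3 (Niben101Scf00571g09002.1) went from 16.2, 14.9 and 12.3 CPM to 79.5, 75.7 and 87 CPM. A subunit shared by RNA polymerases I, II and III (Niben101Scf03861g02041.1) went from 0.444, 0.352 and 0.384 CPM to 25.7, 22.4 and 23.6 CPM, in a list in which 22 of 122 genes rose and 31 fell. Argonaute 2 (Niben101Scf05245g01007.1), an antiviral slicer of RNA silencing, went from 2.98, 3.82 and 5.19 CPM to 21.9, 21.9 and 23.6 CPM.

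Among genes of translation, initiation factors had more rises than falls and ribosomal proteins more falls than rises. Elongation factors were called less often than genes at large in both directions. Of 137 initiation factor genes 62 rose (45.3%) and 16 fell (median 0.34), and with library 5 alone 48 rose and 9 fell (median 0.39). eIF2D (Niben101Scf18156g00010.1), which delivers the first tRNA to the ribosome by a route of its own, went from 7.36, 7.75 and 5.77 CPM to 83.3, 85 and 92.6 CPM (3.64 ± 0.16, adjusted p = 2.8e-11). Elongation factor 2 (Niben101Scf01777g03022.1), which moves the ribosome along the message, went from 71.6, 75.1 and 75.6 CPM to 287, 286 and 283 CPM. Of 82 elongation factor genes 12 rose (14.6%, against 25.7% of all genes) and 19 fell (23.2%, against 28.3%). Their median was 0.03, and -0.04 with library 5 alone. Most ribosomal protein genes were not called. Among 362 genes of the cytosolic ribosome there were 19 rises and 128 falls (35.4%, against 28.3% of all genes, median -0.4), and among 396 of organellar type 17 and 166 (41.9%, median -0.42). With library 5 alone, where 17.2% of all genes fell, 19 of 374 cytosolic and 64 of 402 organellar genes fell, 13 and 16 rose and the medians were -0.2 and -0.21. The cytosolic share of counts was 0.836% and 0.818% in mock libraries 5 and 6, 1.14% in library 7 and 0.649 ± 0.00944% after heat, so the highest mock library was 7 and not the plastid-rich pair.

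Genes that tag proteins for turnover had more rises than falls. Of 115 genes of ubiquitin-conjugating enzymes, polyubiquitin and SUMO 47 rose (40.9%) and 9 fell, and with library 5 alone 41 rose and 3 fell. Desumoylating isopeptidase 1 (Niben101Scf17635g01019.1), which removes the SUMO tag in animals, went from 11.1, 11.7 and 13.7 CPM to 275, 264 and 256 CPM (4.45 ± 0.18, adjusted p = 1.1e-11). The ubiquitin-conjugating enzyme E2 D1 (Niben101Scf03842g01013.1) moved less, from 398, 383 and 293 CPM to 630, 616 and 581 CPM. Among 114 genes of the 26S proteasome 21 rose (18.4%, against 25.7% of all genes) and 12 fell (10.5%, against 28.3%), so both shares lay below those of all genes. The median of -0.02 lay above 0 under several alternatives, at 0.06 with RLE size factors and with library 5 alone. In the list of FtsH, Deg and Lon proteases, which clear damaged proteins in plastids and mitochondria, 37 of 106 genes rose and 19 fell. Its FtsH member Niben101Scf07436g00006.1 went from 1.4, 1.06 and 0.833 CPM to 351, 355 and 355 CPM (8.32 ± 0.34, adjusted p = 1.2e-11), while FtsH gene Niben101Scf00978g02010.1 fell from 20.2, 16.4 and 22.1 CPM to 4.29, 4.5 and 4.69 CPM.

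NAC and bZIP transcription factors had more rises than falls, while TCP, bHLH and homeobox factors had more falls. NAC factors, many of which act in stress and senescence, rose in 42 of 95 genes (44.2%) and fell in 14 (median 0.59), and with library 5 alone in 39 and 9 (median 0.48). Their share of counts went from 0.0804 ± 0.00723% to 0.22 ± 0.00247%. NAC86 (Niben101Scf04099g08003.1) went from 5.27, 5.64 and 3.78 CPM to 83.1, 80.9 and 77.8 CPM (4.04 ± 0.19, adjusted p = 5.4e-11). Of 42 bZIP genes 19 rose and 9 fell. bZIP60 (Niben101Scf24096g00018.1), the factor of the unfolded protein response of the endoplasmic reticulum, went from 11.2, 12 and 12.7 CPM to 52.8, 53 and 47.6 CPM. WRKY factors went both ways, with 30 rises (39.5%) and 24 falls (31.6%) among 76. So did ERF and DREB factors, with 56 rises (37.6%) and 48 falls (32.2%) among 149. WRKY1 (Niben101Scf02362g02014.1) went from 16, 16.2 and 12.9 CPM to 139, 139 and 136 CPM, and an ERF1 gene (Niben101Ctg15010g00002.1), without a read above the lowest count in mock, stood at 26, 23.8 and 21.7 CPM after heat, at least 385-fold higher.

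In the other direction, TCP factors, which restrain cell division at the leaf margin, fell in 21 of 39 genes (53.8%, against 28.3% of all genes) and rose in 3 (median -0.98), and in 15 and 3 with library 5 alone. TCP4 (Niben101Scf08142g03005.1) went from 27.7, 23.6 and 21.7 CPM to 0.4, 0.824 and 0.609 CPM (-5.31 ± 0.21, adjusted p = 9.9e-12). Of 89 bHLH genes 47 fell and 18 rose, and of 95 homeobox genes 47 fell and 11 rose, with medians of -0.7 and -0.69. Both lists kept more falls than rises with library 5 alone, at 37 against 12 and 40 against 6. bHLH96 (Niben101Scf02821g14003.1) went from 22.1, 23.8 and 65 CPM to 0.458, 1.01 and 0.974 CPM. PIF4 (Niben101Scf25765g00005.1), the bHLH factor of warmth-driven elongation in Arabidopsis, rose by less, from 60.8, 58.5 and 40 CPM to 95.1, 93.4 and 88.2 CPM (0.8 ± 0.18, adjusted p = 0.0013). A knotted-1-like 3 homeobox gene (Niben101Scf09454g00008.1) went against its list, from 65, 56.9 and 50.9 CPM to 293, 291 and 277 CPM. GRAS factors, which include the DELLA growth repressors, fell in 25 of 62 genes (40.3%) and rose in 14 (22.6%). MYB factors fell in 68 of 187 (36.4%) and rose in 42 (22.5%). The DELLA gene GAI (Niben101Scf04474g02003.1) went from 32.7, 34 and 33.4 CPM to 15.9, 16.9 and 16.6 CPM. Among clock and light genes, 20 of 44 fell and 6 rose. The clock repressor gene PRR5 (Niben101Scf11670g02004.1) fell from 50.5, 46.7 and 45.4 CPM to 6.23, 6.72 and 5.97 CPM, ELF3 (Niben101Scf12628g02006.1), a clock protein that senses warmth in Arabidopsis, rose from 18.5, 16.2 and 14.5 CPM to 83.7, 87.4 and 90.3 CPM, and GIGANTEA (Niben101Scf07631g02024.1) overlapped between groups.

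**Figure D5:**
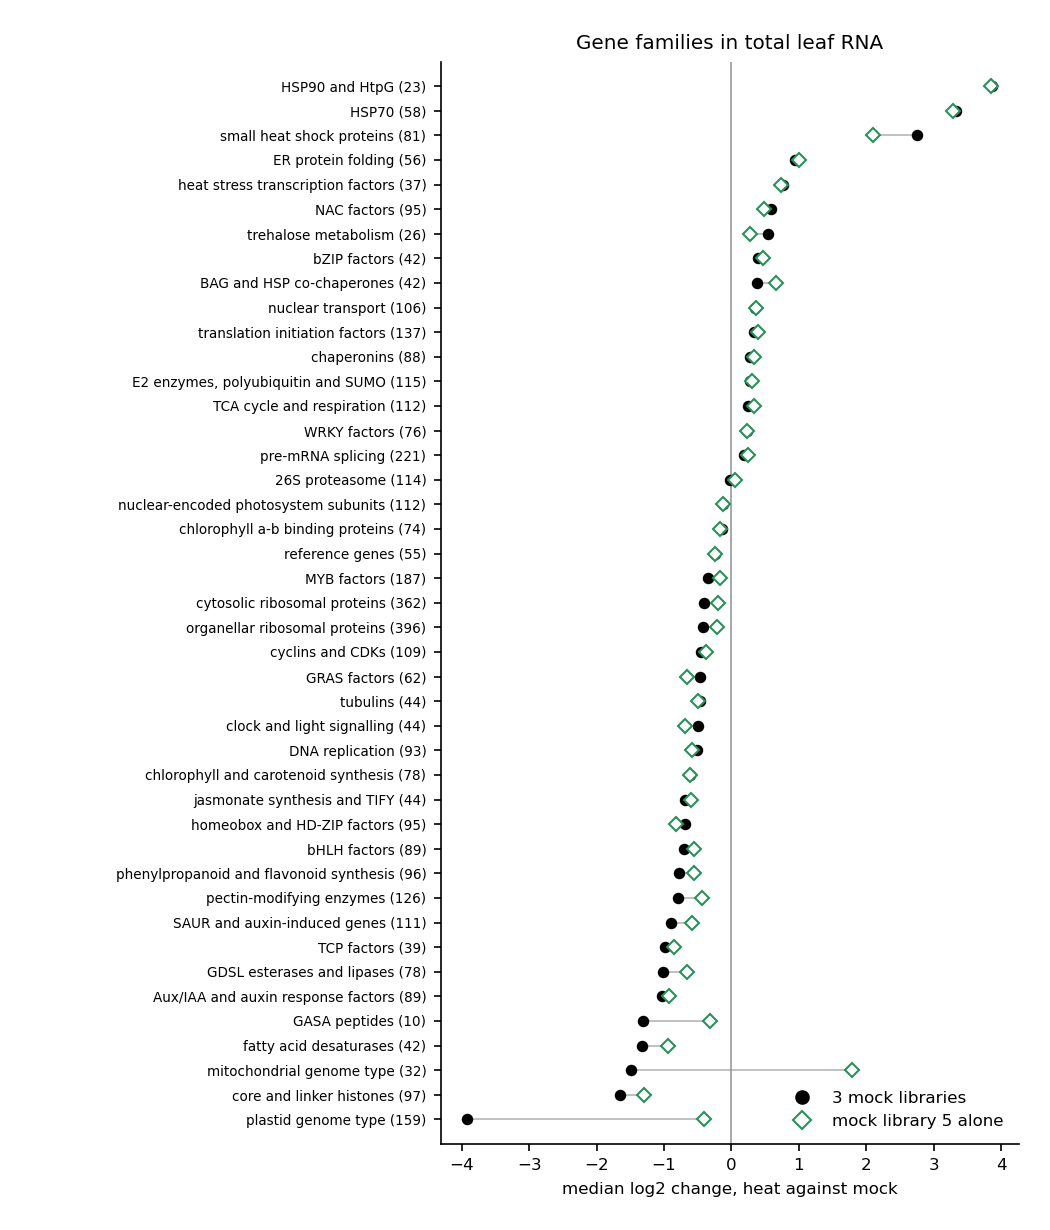
Median log2 change, heat against mock, of 43 gene lists with 3 mock libraries (black) and with mock library 5 alone (green), each over the genes tested in that comparison, with the number tested in brackets for 3 mock libraries. Most pairs of symbols lie close together, and the plastid (-3.92 and -0.41) and mitochondrial (-1.49 and 1.79) lists lie far apart.

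Auxin and jasmonate lists had more falls than rises, and ethylene genes more rises than falls. Aux/IAA repressors and auxin response factors, which set the transcriptional output of auxin, fell in 57 of 89 genes (64%) and rose in 7 (median -1.03). With library 5 alone 43 fell and 6 rose (median -0.93), and their share of counts was 0.155%, 0.171% and 0.169% in mock and 0.0767%, 0.0788% and 0.0783% after heat. ARF8 (Niben101Scf01677g02003.1) went from 25.1, 27.3 and 22.9 CPM to 2.92, 3.04 and 4.14 CPM (-2.9 ± 0.18, adjusted p = 2.3e-09). SAUR and other auxin-induced genes, tied to cell expansion, fell in 57 of 111 (51.4%) and rose in 19 (17.1%). Jasmonate synthesis and its TIFY repressors fell in 23 of 44 genes (52.3%) and rose in 4 (9.09%). The allene oxide synthase genes of this pathway went both ways, Niben101Scf00313g08016.1 from 45.9, 60.1 and 51.3 CPM to 7.61, 6.91 and 4.99 CPM, and Niben101Scf10535g00001.1 from 2.28, 3.05 and 3.14 CPM to 19.6, 19.3 and 23.2 CPM. For ethylene, a gas hormone of stress, 20 of 44 synthesis and receptor genes rose (45.5%) and 15 fell (34.1%), both above the shares among all genes. The summed share of counts of the list went from 0.167 ± 0.0126% to 0.369 ± 0.00617%. This sum is weighted to genes with many counts, such as the next one, and does not describe every member. ACC oxidase 3 (Niben101Scf09590g03007.1), which makes ethylene, went from 482, 530 and 465 CPM to 1340, 1340 and 1310 CPM (1.43 ± 0.15, adjusted p = 1.1e-06). A gibberellin 2-oxidase (Niben101Scf04316g04001.1), which inactivates the growth hormone gibberellin, went from 0.127, 0.0587 and 0.192 CPM to 13.6, 13.9 and 14.2 CPM. The gibberellin receptor GID1 (Niben101Scf15156g01016.1) fell from 18.7, 17.1 and 13.1 CPM to 2.86, 1.96 and 2.01 CPM. A cytokinin-activating enzyme gene (Niben101Scf14333g00004.1, cytokinin riboside 5'-monophosphate phosphoribohydrolase) rose from 18.5, 16.8 and 15.8 CPM to 178, 174 and 172 CPM.

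Histone genes fell in most cases, and lists of replication and division held more falls than rises. Of 97 core and linker histone genes 71 fell (73.2%) and 2 rose (median -1.66), and with library 5 alone 40 fell and 2 rose (median -1.3). Their share of counts was 0.39%, 0.401% and 0.54% in mock and 0.198%, 0.186% and 0.193% after heat, so every mock library lay above every heat library. A linker histone H1 gene (Niben101Scf04361g01001.1) went from 88.6, 88.7 and 107 CPM to 8.87, 7.48 and 8.52 CPM (-3.51 ± 0.17, adjusted p = 1.2e-10). Histone H2A.1 (Niben101Scf03277g02012.1) was an exception, at 42.5, 46.5 and 53.7 CPM in mock and 90.2, 84.7 and 83.6 CPM after heat. DNA replication genes fell in 29 of 93 (31.2%, near the 28.3% of all genes) and rose in 7, and cyclins and cyclin-dependent kinases fell in 47 of 109 and rose in 25, or in 27 and 17 with library 5 alone. Cyclin-D1-1 (Niben101Scf01494g03010.1), which starts the division cycle, went from 27, 25.2 and 27.2 CPM to 2.8, 2.41 and 2.44 CPM. Tubulins, the building blocks of microtubules, fell in 19 of 44 and rose in 7, and here 9 fell and 7 rose with library 5 alone.

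Genes of membrane lipids and pectin had more falls than rises. Desaturases add double bonds to fatty acids, which keeps membranes fluid, or to sterols. Desaturase genes fell in 30 of 42 (71.4%) and rose in 3 (median -1.33, and -0.94 with library 5 alone). A C-5 sterol desaturase (Niben101Scf02381g07006.1) went from 15.7, 15 and 15.2 CPM to 1.54, 2.09 and 1.52 CPM (-3.15 ± 0.2, adjusted p = 3.3e-09). The chloroplast omega-3 desaturase with the most counts in the list (Niben101Scf00318g10005.1) fell less, from 159, 142 and 156 CPM to 113, 116 and 114 CPM, and did not pass with library 5 alone (adjusted p = 0.13). A gene with the text of a bacterial phosphatidylinositol-specific phospholipase C (Niben101Scf02658g01007.1) went from 93.5, 84.9 and 60 CPM to 1.54, 1.84 and 1.77 CPM (-5.53 ± 0.29, adjusted p = 2.1e-10). Pectin-modifying enzymes, which loosen or stiffen the wall between cells, fell in 60 of 126 genes (47.6%) and rose in 21 (16.7%). Among the rises, a pectin acetylesterase (Niben101Scf08565g00001.1) rose from 15.2, 13 and 8.58 CPM to 265, 264 and 249 CPM. Expansins and xyloglucan enzymes had 30 rises and 31 falls among 82, but 26 and 19 with library 5 alone, and their median of -0.27 was 0.07 with library 5 alone, 0.06 in the 6 libraries alone and 0.18 at a mean of at least 5 CPM. Expansin-like A1 (Niben101Scf08047g01012.1) rose from 4.63, 4.81 and 4.68 CPM to 49.2, 52.5 and 54.8 CPM.

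Further large falls concerned peptides, transporters and secondary metabolism. A thionin-like gene (Niben101Scf05375g00004.1), thionins being small antimicrobial peptides, went from 135, 159 and 169 CPM to 4.69, 0.887 and 3.96 CPM (-5.59 ± 0.68, adjusted p = 4.5e-06). NRT1/PTR family 5.1 (Niben101Scf02414g02013.1), of the nitrate and peptide transporter family, went from 14.8, 15.6 and 20.2 CPM to 0.286, 0.317 and 0.426 CPM. An HXXXD-type acyl-transferase (Niben101Scf01409g04017.1), of a family that decorates plant metabolites, went from 17.8, 13.7 and 17.4 CPM to 0.114, 0.697 and 0.426 CPM, and cytosolic sulfotransferase 17 (Niben101Scf01143g02025.1) from 11.1, 10.7 and 22.1 CPM to 0.229, 0.253 and 0.548 CPM. These 4 genes were called with library 5 alone too. Phenylpropanoid and flavonoid synthesis, the source of lignin and pigments, fell in 49 of 96 genes and rose in 22 (median -0.78), and in 34 and 17 with library 5 alone. Cinnamoyl-CoA reductase 1 (Niben101Scf06349g02013.1), an enzyme of lignin synthesis, went from 25.7, 22.7 and 26.3 CPM to 3.89, 4.75 and 4.93 CPM, while chalcone synthase 1 (Niben101Scf04655g04020.1), the first enzyme of flavonoid synthesis, rose from 6.85, 6.75 and 7.88 CPM to 24.2, 24.2 and 22.9 CPM.

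Among photosynthesis genes, falls outnumbered rises in pigment synthesis and in the Calvin cycle, while most antenna genes were not called. Antenna proteins, the chlorophyll a-b binding proteins, rose in 7 of 74 genes (9.46%, against 25.7% of all genes) and fell in 15 (20.3%, against 28.3%), with a median of -0.14. Their share of counts went from 12.2 ± 0.906% to 9.19 ± 0.216%. Antenna gene Niben101Scf05349g01011.1 overlapped between groups at 5910, 5790 and 4830 CPM and 6810, 5420 and 6180 CPM, and Niben101Ctg16374g00003.1 fell from 2390, 2380 and 1980 CPM to 343, 328 and 329 CPM (-2.75 ± 0.17, adjusted p = 2.3e-09). Enzymes of chlorophyll and carotenoid synthesis fell in 46 of 78 genes (59%) and rose in 7 (median -0.61), with 35 and 6 with library 5 alone (median -0.62). Phytoene synthase (Niben101Scf04020g00002.1), the entry enzyme of carotenoid synthesis, went from 53.3, 51 and 54.3 CPM to 2.97, 1.71 and 2.44 CPM (-4.47 ± 0.24, adjusted p = 2.8e-10). Protochlorophyllide reductase (Niben101Scf00506g02003.1), the light-driven step of chlorophyll synthesis, went from 607, 626 and 739 CPM to 268, 272 and 258 CPM. Rubisco activase keeps the carbon-fixing enzyme open and is itself heat-sensitive. Its gene with the most counts, Niben101Scf05368g03015.1, fell from 1190, 1070 and 873 CPM to 597, 572 and 568 CPM, and another, Niben101Scf28395g00001.1, rose from 28, 28.4 and 22.9 CPM to 507, 509 and 489 CPM (4.25 ± 0.26, adjusted p = 1.8e-09). Of 48 Calvin cycle genes 24 fell (50%) and 4 rose (8.33%). Among the rises was a phosphoglycerate kinase (Niben101Scf03856g00004.1) that went from 22.5, 17.1 and 20.5 CPM to 483, 479 and 494 CPM.

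Respiration and starch genes had more rises than falls. Of 112 genes of the TCA cycle and nuclear-encoded respiration 43 rose (38.4%) and 11 fell (median 0.24), and with library 5 alone 30 and 4. Cytochrome c oxidase subunit 5C (Niben101Scf06864g00005.1) went from 13.4, 11.3 and 11.8 CPM to 102, 92.8 and 92.1 CPM. Starch metabolism rose in 12 of 35 genes (34.3%) and fell in 3 (8.57%). Its median was 0.36, and smaller, at 0.19, with library 5 alone. Beta-amylase 1 (Niben101Scf00274g01001.1), which releases maltose from starch, went from 5.77, 6.93 and 5.25 CPM to 175, 169 and 180 CPM (4.86 ± 0.18, adjusted p = 4.7e-12), and granule-bound starch synthase (Niben101Scf21165g00004.1) fell from 77.8, 77.7 and 56 CPM to 24.2, 21.4 and 22.1 CPM. Sugar transporters and invertases were balanced, with 44 rises (33.6%) and 41 falls (31.3%) among 131. An alkaline/neutral invertase (Niben101Scf01964g08023.1), which splits sucrose in the cytosol, went from 4.31, 3.64 and 3.33 CPM to 141, 147 and 144 CPM.

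Signalling and defence lists held both rises and falls, where 25.7% of all genes tested rose and 28.3% fell. Calmodulins and calcium-dependent kinases, the readers of calcium signals, rose in 47 of 118 genes (39.8%) and fell in 33 (28%). A calcium-transporting ATPase (Niben101Scf06238g01010.1) went from 24.4, 26.7 and 22.7 CPM to 210, 220 and 233 CPM, and the cyclic nucleotide-gated channel gene 14 (Niben101Scf08680g02015.1) from 16, 17.7 and 14 CPM to 3.15, 2.72 and 2.74 CPM. Receptor-like kinases, the largest list, rose in 193 of 721 genes (26.8%) and fell in 249 (34.5%). Disease resistance proteins of the NLR type rose in 18 of 87 (20.7%) and fell in 28 (32.2%). Their median of -0.24 was -0.51 with library 5 alone, 0.01 in the 6 total RNA libraries alone, 0.03 without mock library 5 and 0.4 at a mean of at least 5 CPM. Protein phosphatases 2C and abscisic acid receptors rose in 54 of 168 (32.1%) and fell in 53 (31.5%). Pathogenesis-related proteins and chitinases rose in 37 of 109 (33.9%) and fell in 25 (22.9%). With library 5 alone, the medians of the calmodulin, phosphatase and pathogenesis-related lists were 0.01, 0.03 and 0.17, against 0.09, -0.02 and 0.2.

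Among the remaining lists, several had shares of rises at the 25.7% of all genes tested. RNA helicases rose in 45 of 175 genes (25.7%) and ribosome biogenesis genes in 33 of 128 (25.8%). Aminoacyl-tRNA synthetases, which load amino acids onto tRNA, rose in 28 of 115 (24.3%). In these lists 24, 16 and 17 genes fell (13.7%, 12.5% and 14.8%), below the 28.3% of all genes. Larger shares of rises were found for histone and DNA modifiers (68 of 210, 32.4%), U-box ubiquitin ligases (32 of 98, 32.7%) and autophagy genes (14 of 41, 34.1%). Here 41, 21 and 8 genes fell (19.5%, 21.4% and 19.5%), again below the share of all genes. Shares of falls near the 28.3% of all genes were found for thioredoxins, peroxiredoxins and glutaredoxins (52 of 165, 31.5%), MAP kinases (18 of 58, 31%), phospholipases and phosphoinositide enzymes (61 of 183, 33.3%) and aquaporins (19 of 59, 32.2%). In the same order 33, 12, 45 and 14 genes of these lists rose. CONSTANS-like and B-box proteins fell in 19 of 46 genes (41.3%) and rose in 7. GDSL esterases and lipases fell in 36 of 78 (46.2%) and rose in 10 (12.8%), and lipid-transfer proteins fell in 25 of 65 (38.5%) and rose in 5 (7.69%). With library 5 alone, 22 GDSL genes fell and 6 rose, and 12 lipid-transfer protein genes fell and 6 rose. Lipid-transfer proteins took 0.29%, 0.259% and 0.421% of counts in mock libraries 5, 6 and 7. GASA peptides, small cysteine-rich peptides of growth, fell in 6 of 10 and rose in 0, but 3 fell with library 5 alone (median -1.31 and -0.32).

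Genes with texts that laboratories use as references were called as often as genes at large. Of 55 tested, 14 rose (25.5%, against 25.7% of all genes) and 16 fell (29.1%, against 28.3%), and with library 5 alone 8 and 9. Actin-2 gene Niben101Scf06954g00015.1 went from 71.6, 75.1 and 75.7 CPM to 150, 142 and 149 CPM (0.99 ± 0.13, adjusted p = 1.4e-05), while Niben101Scf00672g00001.1, with the same text, overlapped between groups at 159, 154 and 122 CPM and 121, 125 and 120 CPM (adjusted p = 0.13). An adenine phosphoribosyltransferase (Niben101Scf08987g00006.1) fell from 25.4, 22.4 and 26.3 CPM to 4.46, 4.44 and 4.08 CPM.

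Markers of other tissues were present at low shares of counts. These shares of total counts, not scaled by TMM, differed between mock and heat without overlap, except for guard cell texts, whose groups overlapped. Overlap of the sums on the CPM scale was not computed. Floral and meristem texts, 64 tested genes, summed to 0.0695 to 0.0712% in mock and 0.0834 to 0.0866% after heat, with 8 rises and 32 falls, so the share rose while most called genes fell. The gene with the highest mean level in that list was the knotted-1-like gene Niben101Scf09454g00008.1 given above. Guard cell texts, 19 genes, summed to 0.00896 to 0.0117% and 0.0101 to 0.0105%, with 2 rises and 10 falls. Vascular texts, 5 genes, summed to 0.00446 to 0.00676% and 0.0087 to 0.00957%, with 3 rises and 0 falls. Pollen texts, 42 genes, summed to 0.0698 to 0.112% and 0.0508 to 0.0531%, with 8 rises and 16 falls. Their leading gene, Niben101Scf00094g00009.1, carries the text of a birch pollen allergen, a protein family that also includes pathogenesis-related proteins of leaves, and stood at 171, 160 and 310 CPM in mock and 89.9, 92.5 and 97.9 CPM after heat. The part of other cell types in the results was not tested.

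Some transcripts were found in 1 condition only at this depth. Genes at the lowest count in all 3 mock libraries and with at least 10 counts in each heat library numbered 88, and 15 of them were in chaperone lists (8 HSP70, 6 small heat shock proteins and 1 BAG gene). Outside these, 5 were ERF or DREB factors, 2 were WRKY factors and 49 were in no list. Aquaporin PIP2-7 (Niben101Scf03947g00005.1), a water channel, stood at 12.2, 14 and 11.8 CPM after heat, at least 203-fold higher. MADS-box transcription factor 1 (Niben101Scf01310g04010.1), of a family known from flower development, stood at 26.1, 26 and 25.7 CPM, at least 418-fold higher. In the other direction, 37 genes met the same condition with heat and mock exchanged, 29 of them in no list and 0 of plastid or mitochondrial genome type. They included, chosen after their values were seen, 4 of the 7 genes with the text of GATA transcription factor 21, a family of factors for chloroplast development in Arabidopsis. Of these 7, 6 fell and 0 rose, and Niben101Scf03111g01017.1 went from 2.22, 4.05 and 12.3 CPM to no read above the lowest count, at least 100-fold lower. Growth-regulating factor 4 (Niben101Scf02897g02017.1), which promotes leaf cell division and was also chosen after its values were seen, went from 4.44, 3.76 and 2.75 CPM to the lowest count, at least 59-fold lower. With library 5 as the only mock library, which loosens the condition, 162 genes appeared and 52 disappeared.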

How the data were processed

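RNA sequencing libraries of total leaf RNA were grouped by their titles and treatment labels (3 heat, 3 mock). Per the file headers, the deposited table gives each gene's raw count, a whole number. The authors' normalized values and log2 ratios in the table were not used. The submitters' processing notes list HTSeq 0.11.0, DESeq, HISAT2 and cutadapt but not what each did. Genome build and strand of counting are not given in the sources used here. No reference genome was used, so coordinates and sequences are left out. No library holds a count under 1, and no gene sums to less than 22 over the 12 libraries. An added 1 would give this pattern and would shrink folds of genes near it. Of the table, 2 lines were emptied and are not analysed here, 22 genes have no annotation text and 0 columns lack a sample.

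The counts entered the test as deposited (edgeR 4.0.16, R 4.3.3). Genes were kept by filterByExpr at a count of 10, scaled by TMM and fitted by quasi-likelihood with 4 group means over the 12 libraries, with Benjamini-Hochberg adjustment at 0.05. Each SE was derived from the log2 change and its F value. CPM use TMM library sizes. Shares of counts use the library's total count without the TMM factors. These factors were 1.40312 to 1.46047 in mock and 1.22341 to 1.25573 after heat, so shares and CPM are on different scales. A small difference between groups in a share need not hold in CPM. The fit with mock library 5 alone leaves out mock libraries 6 and 7. No pair of libraries agreed within sampling noise. Library totals were 10724854 to 11984551 in mock and 12601286 to 14313000 after heat. Bounds on folds use 3 counts over the group at the lowest count. The script was tested on simulated counts.

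The 97 gene lists are matched on annotation text. The lists and the genes named were chosen with earlier results of these data known, and text patterns were adjusted after the annotation was seen, so lists are described by counts and medians without a test. Named genes are drawn from 12 rises and 12 falls, the largest left by these conditions: past the threshold in both fits (informative text, mean CPM above the median, no overlap between groups, no organelle type, 2 at most per list or text) and, per list, those of lowest adjusted p among rises and among falls and that of highest mean CPM. Genes said to be chosen after their values were seen are exceptions.

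Alternatives were DESeq2 1.42.0, limma-voom (limma 3.58.1), RLE size factors, scaling without organelle-type genes, no filter, a floor of 5 CPM on the mean, the 6 libraries alone, counts less 1, an absolute log2 change over 1, mock library 5 alone and each library left out. Library 6 or 7 alone, library 5 alone with another scaling, and the counts of genes found in 1 condition under other libraries were added after seeing the data.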

Additional observations from a re-analysis of the deposited data

How the results depend on the processing

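With DESeq2, limma-voom, RLE size factors, no filter, a floor of 5 CPM, counts less 1, scaling without organelle-type genes or the 6 total RNA libraries alone, the number of rises stayed within 1.5 times of 8832 (5976 to 9997) and that of falls within 1.5 times of 9728 (6815 to 10162). Leaving out 1 library gave 8014 to 8676 rises and 8131 to 9083 falls. Rises dropped to 5382 where a log2 change over 1 was also required, and falls to 6262 with mock library 5 alone, an alternative that has 1 mock library in place of 3. Genes at the lowest count in mock numbered 162 with library 5 alone and 89 to 128 without 1 library, against 88. Those at the lowest count in heat numbered 40 to 64 without 1 library, against 37, with 56, 58 and 64 without heat library 2, 3 or 4. Both numbers can only stay or grow when libraries are left out, because the condition then covers fewer libraries. The direction of these changes was therefore fixed in advance. Of the values computed for single genes under alternatives, 4483 stayed on their side of the threshold, 107 no longer passed, 21 newly passed and 2 reversed. A change of sign was counted as a reversal only if the gene passed the threshold in either fit. Genes called in neither fit could change sign among the 4483. The DnaJ gene Niben101Scf01834g01011.1 did so, at 0.22, and -0.08 with library 5 alone. The 2 reversals came with library 5 alone. Niben101Scf07635g00006.1 (cytochrome b) went from a log2 change of -3.81 to 1.4 (adjusted p = 0.44), and Niben101Scf05079g00020.1 (NADH-ubiquinone oxidoreductase chain 4) from -1.52 to 2.07 (adjusted p = 0.0044). Both are of mitochondrial genome type, whose summed level in library 5 lay below that of the heat libraries, and the cause was not tested. No paired analysis was possible because the heat libraries (2 to 4) and the mock libraries (5 to 7) share no replicate number. Depth limits genes near the lowest count, whose folds are bounds or ratios with wide counting intervals.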

Other observations

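Families of annotation texts that fall in no list were sorted by their median log2 change, so those given here were chosen after their values were seen and are described without a test. Of 376 texts with at least 10 tested genes, 168 had a median over 0 and 204 under 0, and 43 changed sign with mock library 5 alone. The lowest medians included texts of developmental regulators and metabolism. ATP synthase subunit alpha, a text outside the organelle lists, was also among them, with 12 falls and 1 rise in 14 genes. Its median was -2.26, and -0.24 with library 5 alone. Zinc-finger homeodomain proteins fell in 12 of 17 genes and rose in 0 (median -2.7, and -2.27 with library 5 alone). Zinc-finger homeodomain protein 9 (Niben101Scf03474g01001.1) stood at 15.9, 20.1 and 22.5 CPM in mock libraries 5, 6 and 7 and 2.17, 1.52 and 2.01 CPM in heat libraries 2, 3 and 4. ELF4-like genes, relatives of a clock gene, fell in 8 of 11 (median -2.37), and Niben101Scf04044g14003.1 went from 7.74, 7.22 and 9.03 CPM to 0.229, 0.127 and 0.244 CPM. MLP-like genes, relatives of major latex protein, fell in 11 of 12, and MLP-like protein 34 (Niben101Ctg08688g00001.1) went from 475, 475 and 471 CPM to 98.1, 106 and 87.1 CPM. High mobility group B proteins, which bend DNA, fell in 9 of 15, and member 3 (Niben101Scf02041g04034.1) went from 87.3, 103 and 103 CPM to 12.2, 11.3 and 12.1 CPM. Growth-regulating factors fell in 11 of 17, YABBY factors of leaf polarity in 9 of 12 (3 with library 5 alone) and NPH3 proteins of phototropism in 28 of 39. Pentatricopeptide repeat proteins, which process organelle RNA, fell in 201 of 543 genes and rose in 55 (median -0.49), and in 158 and 29 with library 5 alone (median -0.72).

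The highest medians included membrane traffic and ion exchange. Proteins of the compartment between endoplasmic reticulum and Golgi rose in 8 of 11 genes and fell in 0 (median 1.36, and 1.21 with library 5 alone). Arf-GAP proteins, regulators of vesicle budding, rose in 10 of 12, and Niben101Scf03731g02014.1 went from 14.5, 16.1 and 14.1 CPM to 83.3, 76 and 80.1 CPM. FYVE zinc-finger proteins of endosomes rose in 9 of 10. Sodium/hydrogen exchangers rose in 8 of 11, and exchanger 7 (Niben101Scf19216g00006.1) went from 2.16, 1.29 and 0.961 CPM to 53.2, 53 and 51.5 CPM. PLATZ transcription factors rose in 8 of 10, and Niben101Scf02164g01001.1 went from 1.52, 1.59 and 0.961 CPM to 66.6, 69 and 65 CPM, a log2 change of 5.61 ± 0.27 (adjusted p = 9.2e-11 in edgeR's quasi-likelihood test). Phosphofructokinase, a gate of glycolysis, rose in 8 of 10. F-box proteins, the substrate readers of a ubiquitin ligase, rose in 110 of 339 genes and fell in 84, and cytochrome P450 genes rose in 40 of 153 and fell in 71.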
